A study of Mus musculus with 2 samples.

Results

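The genes described here are 52 mouse genes of G2 phase and mitosis, out of 53378 gene rows counted, followed across 4 sorted groups of single bone marrow cells. They were taken as a list of symbols, with no threshold on a measured value but with earlier results of these data known. Every one of the 52 was higher in the mAG+ gate than in any other gate, Lbr by the least against mKO2neg. The share of all genes highest in mAG+ was not taken. The cells came from 8-week-old C57BL/6 mice carrying Fucci, a cell cycle reporter with an orange protein, mKO2, and a green protein, mAG. The 4 gates were mKO2high, mKO2low, mKO2neg and mAG+, named by reporter brightness, with 48 cells in each. One library held mKO2neg and mAG+ and the other held mKO2high and mKO2low, and the RNA was read by a modified Smart-seq2 method that enriched the 3′ ends of transcripts. The sources used here give neither the surface phenotype of the cells, nor the number of mice, nor the promoter driving the reporters.

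In Fucci cells the orange protein is fused to part of Cdt1 and builds up in G0 and G1, whereas the green protein is fused to part of geminin and builds up from S phase until mitosis. Transcripts for mitosis are made late in the cell cycle: MuvB complexes hold many of these genes silent in resting cells and, joined by B-Myb and FoxM1, switch them on in G2. Their products then carry out a fixed sequence of work. Cdk1 and its cyclins open mitosis, condensins and topoisomerase shape the chromosomes, kinetochores attach them to the spindle, and the anaphase promoting complex ends mitosis by protein destruction. Most blood stem cells of adult marrow rest outside the cycle, so these genes mark the cells that are about to divide.

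The promoters of some of these genes are shown because MuvB recognises a short element in them, the cell cycle genes homology region, and because NF-Y binds CCAAT boxes. In the RefSeq promoter table for GRCm38.p6, 46 of the 52 genes were matched, with 51 promoters of 250 bases before to 50 bases after the gene start. Tpx2, Smc4, Aurkb, Cdc25c, Dlgap5 and Cdca2 had no entry. The 250 bases before the start are printed 5′ to 3′ along the gene, with capitals for CCAAT and for the homology element, searched as TTTGAA and in its variant form TTCGAA, each on either strand. They belong to Cdk1 at chr10:69352913-69353162 (minus strand), the kinase that opens mitosis, Ube2c at chr2:164769679-164769928 (plus strand), a ubiquitin-conjugating enzyme of the anaphase promoting complex, and Cdc20 at chr4:118437344-118437593 (minus strand), an activator of that complex. Top2a at chr11:99024190-99024439 (minus strand) encodes a DNA topoisomerase, and Birc5 at chr11:117848987-117849236 (plus strand), which encodes survivin, is shown because none of these motifs was found in the stretch printed.
Cdk1: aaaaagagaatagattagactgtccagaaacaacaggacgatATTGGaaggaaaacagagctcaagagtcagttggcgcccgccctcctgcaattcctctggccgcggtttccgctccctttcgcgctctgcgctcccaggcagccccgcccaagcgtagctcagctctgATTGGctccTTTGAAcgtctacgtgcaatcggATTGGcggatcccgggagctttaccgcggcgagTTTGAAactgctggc
Ube2c: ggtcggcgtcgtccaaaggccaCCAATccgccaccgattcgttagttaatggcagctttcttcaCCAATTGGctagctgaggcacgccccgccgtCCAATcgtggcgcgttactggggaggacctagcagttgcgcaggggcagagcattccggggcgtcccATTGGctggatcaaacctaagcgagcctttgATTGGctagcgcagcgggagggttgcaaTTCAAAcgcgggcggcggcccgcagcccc
Cdc20: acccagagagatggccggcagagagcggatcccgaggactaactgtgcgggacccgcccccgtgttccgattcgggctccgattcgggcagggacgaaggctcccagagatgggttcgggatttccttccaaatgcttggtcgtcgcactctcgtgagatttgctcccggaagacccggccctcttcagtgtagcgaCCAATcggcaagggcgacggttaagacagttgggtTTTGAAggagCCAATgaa
Top2a: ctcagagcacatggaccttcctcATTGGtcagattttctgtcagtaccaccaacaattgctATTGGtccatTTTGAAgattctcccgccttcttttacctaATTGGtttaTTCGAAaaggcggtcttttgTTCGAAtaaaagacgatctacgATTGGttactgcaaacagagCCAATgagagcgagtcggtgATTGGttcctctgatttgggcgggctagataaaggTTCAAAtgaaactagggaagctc
Birc5: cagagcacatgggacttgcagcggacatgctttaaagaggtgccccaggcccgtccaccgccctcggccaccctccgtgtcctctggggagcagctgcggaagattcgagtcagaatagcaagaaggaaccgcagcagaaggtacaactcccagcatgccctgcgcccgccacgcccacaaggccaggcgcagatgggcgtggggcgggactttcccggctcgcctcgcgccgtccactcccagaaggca

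The homology element in either form was present in 38 of the 51 promoters, or 74.5%, against 19.2% of the 32841 promoters in the table with no unknown base. Within 50 bases of the start on either side it was present in 32 of 51, or 62.7%, against 5.30% of all promoters. CCAAT was found in 74.5% against 37.4%, and both kinds of motif in 60.8% against 7.52%. TTCGAA is its own reverse complement, and neither 6-letter motif overlaps CCAAT in its letters. The genes with and without the 6-letter motif near the start had near-equal median ratios between gates. The median log2 ratio of mAG+ to mKO2neg was 3.23 for the 30 genes with it and 3.12 for the 16 without it. A match is a description of letters only, and the absence of a match says nothing about which factor binds there.

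Each gate is 1 sample, so no test between gates was possible, and every interval given is a 95% interval of counting error. The sources used here do not say whether reads carried molecular identifiers, and reads are not independent molecules, so spread between animals and cells lies outside these intervals. In the order mKO2high, mKO2low, mKO2neg and mAG+, the gates held 934036, 1703263, 1608630 and 2791584 counts. Median depth was 14510.5, 26851.5, 24633 and 45177 counts per cell, so the mAG+ gate was also the deepest. The libraries shared 0 cell names, and 12 cells had under 1000 counts. Gene labels were displaced in the deposited tables, and each gene was read from the row of the gene just before it in GENCODE M21 order. Read in this way, 83 ribosomal protein genes held 19.6% of all counts, against 0.167% under the labels as given, and Actb held 25599 counts against 136. All 52 mitotic genes then had at least 10 counts, whereas 25 of them stood at 0 under their own labels. Among the markers, the 12 blood stem and progenitor genes summed to 2566, 2245, 2096 and 1790 CPM from mKO2high to mAG+, where CPM is the count of a gene scaled to an equal total in every gate. Granulocyte and monocyte markers, mostly Lyz2 and Prtn3, summed to 951 to 1517 CPM, megakaryocyte markers to 183 to 424 CPM, and B cell markers to 81.4, 102, 106 and 197 CPM. The T and NK cell markers reached at most 36.9 CPM and stroma and endothelium markers at most 18.6 CPM. The stem cell receptor gene Procr was 315, 170, 150 and 56.6 CPM in the same order, and the part of cell identity in the gate differences was not tested.

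**Figure D1:**
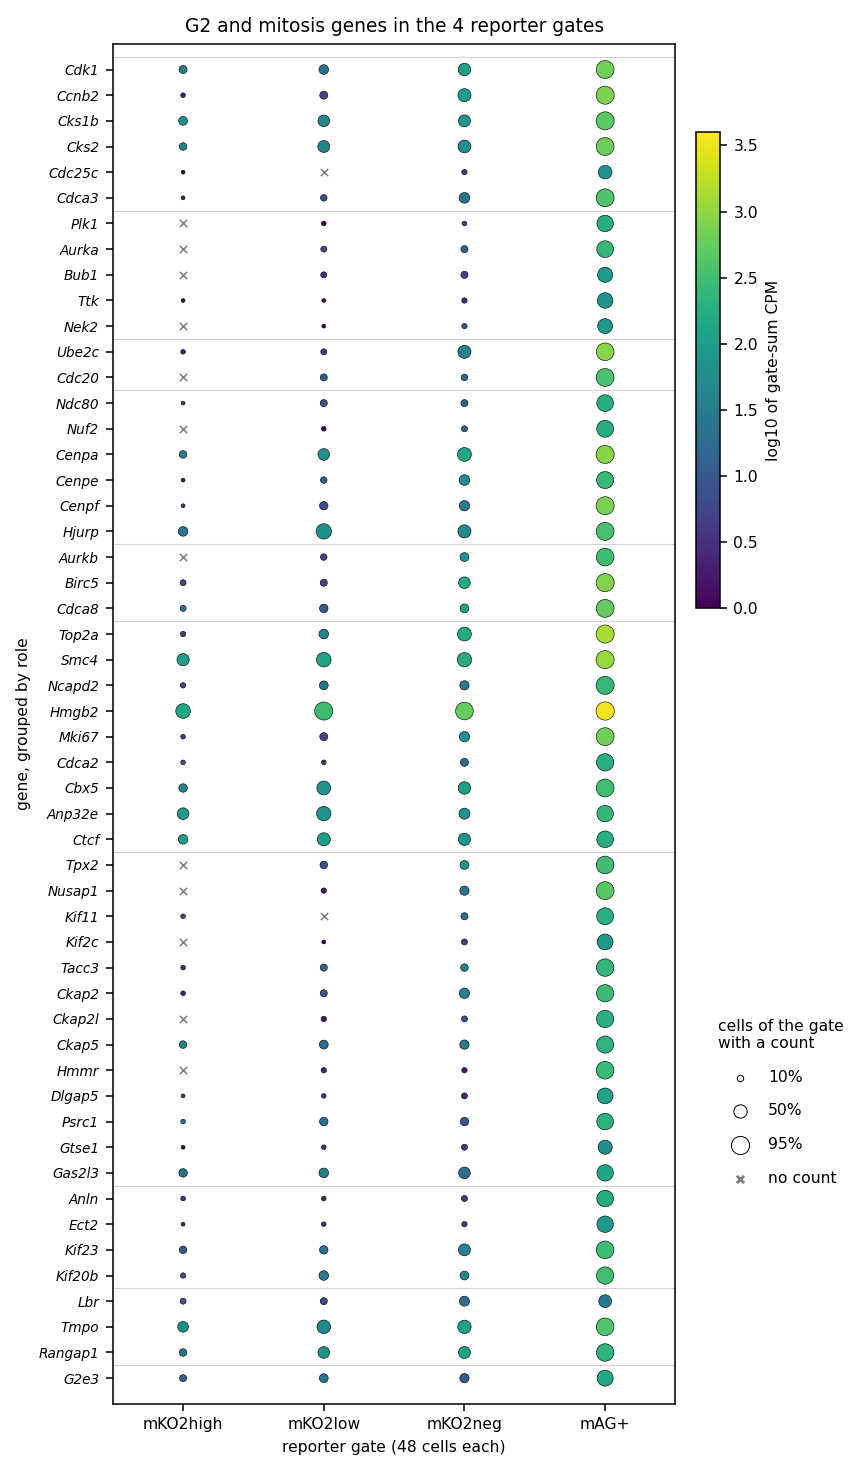
The 52 genes by role (rows) in the 4 gates (columns), with colour for log10 of gate-sum CPM and dot size for the share of the 48 cells with a count. The mAG+ column holds the largest and brightest dots, and the crosses mark genes with no count, 12 of them in mKO2high.

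As a group, the 52 genes took by far their largest share of the counts in mAG+. Their share of all counts was 0.0954% in the mKO2high gate, 0.139% in the mKO2low gate, 0.302% in the mKO2neg gate and 2.13% in the mAG+ gate. The step from mKO2low to mKO2neg rested on 3 mKO2neg cells, described further on, without which the mKO2neg share was 0.138%. Without the deepest cell of each gate, 1 of those 3 in mKO2neg, the shares were 0.0930%, 0.143%, 0.187% and 2.16%. For 32 of the 52 the gate-sum CPM followed that order without a break, against 6.9% of the 13137 genes with at least 10 counts over the 4 gates. Without the deepest cells this held for 29 of the 52, and the share over all genes was not taken there. From mKO2high to mAG+, the median gene was counted in 4.17%, 12.5%, 22.9% and 86.5% of cells. With every cell thinned to 5000 counts, which left 39, 48, 43 and 45 cells, these shares were 2.56%, 4.17%, 9.30% and 61.1%. At that depth all 52 genes had their highest share in mAG+, and for 45 of them the lower limit there lay above the upper limits of the other 3 gates. The exceptions were Anp32e, Rangap1, Lbr, Ctcf, Nek2, G2e3 and Gas2l3. The same counts were not taken over all genes, which leaves no share to set beside them.

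The mAG+ and mKO2neg gates were sequenced in one library and give the most direct comparison. All 52 genes were higher in mAG+, against 6397 of the 12115 genes with at least 10 counts in the 2 gates together. At least 2-fold higher were 50 of the 52, against 21.2% of the 12115. The median log2 ratio of the 52 was 3.14, against 0.06 for all genes, and their summed counts gave 2.82 (95% interval 2.78 to 2.86). Of the 52 ratios, 18 moved by over 1.5 times when the deepest cell of each gate was removed, all of them upward, and these values are given with the genes. Lbr and Rangap1, both of the nuclear envelope or pore, were the members under 2-fold. By role, the median log2 ratio ran from 0.82 for the nuclear envelope and 2.17 for the chromosomal passenger complex to 4.34 for the checkpoint and mitotic kinases and 4.47 for the partners of the anaphase promoting complex. This order rested on the deepest mKO2neg cell: without the deepest cells the passenger complex had 4.69, the kinases 4.41, the partners of the anaphase promoting complex 4.61 and the nuclear envelope 1.11.

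**Figure D2:**
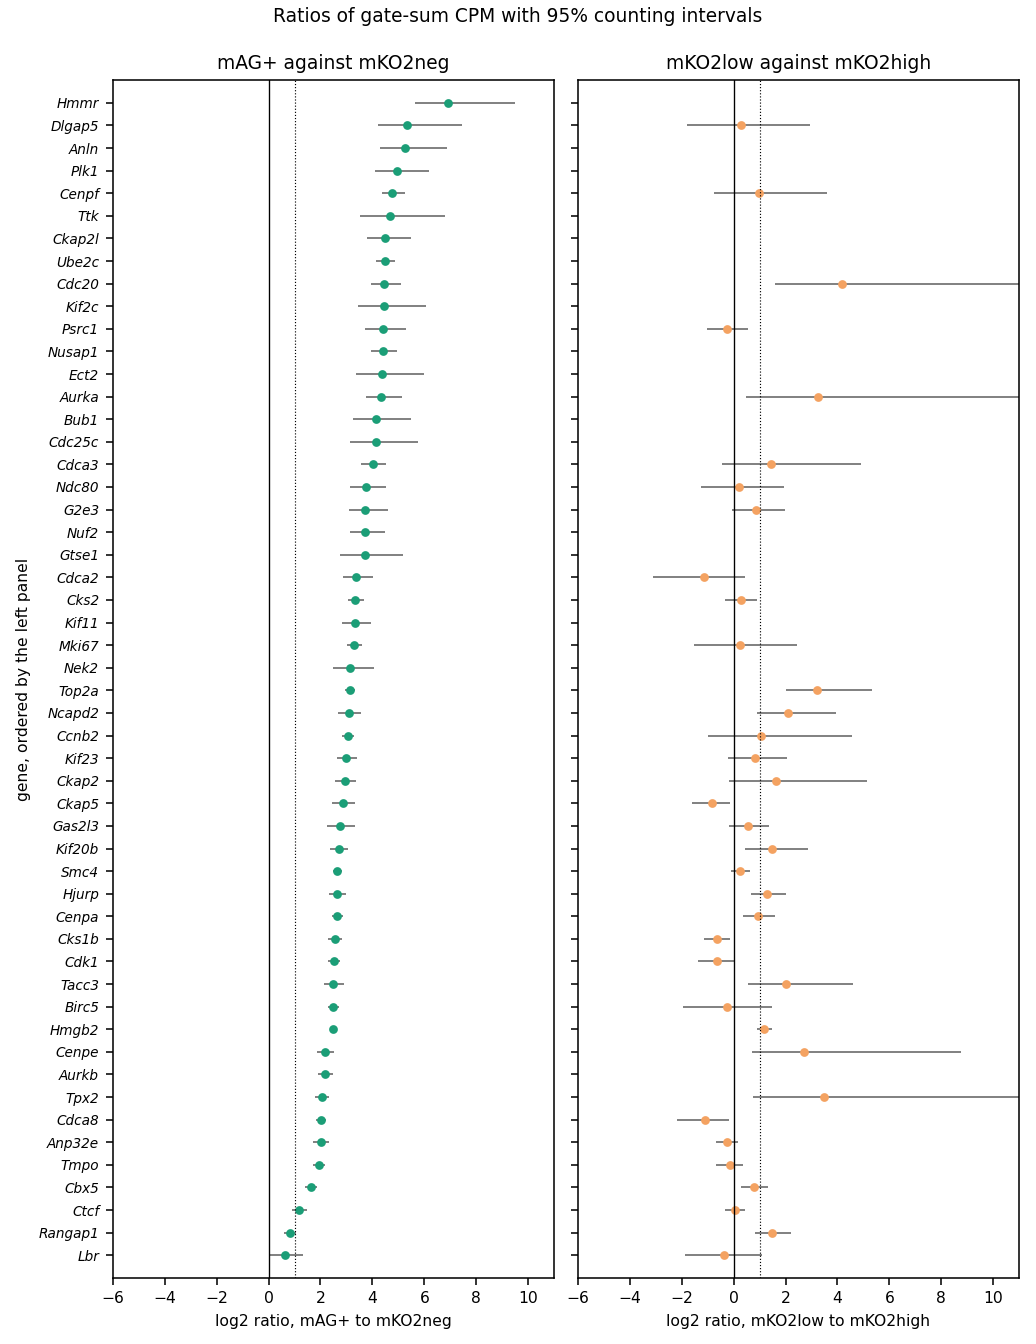
Log2 ratio of gate-sum CPM for each gene (points) with its 95% counting interval (lines), for mAG+ against mKO2neg (left) and mKO2low against mKO2high (right), with a dotted line at 2-fold. All points on the left lie above 0, those on the right lie on both sides, genes under 10 counts are left blank, and the lines of Cdc20, Aurka and Tpx2 run past the axis because these had no count in mKO2high.

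Among the factors that open mitosis, Cdk1 had 36.4, 22.9, 114 and 657 CPM in the order mKO2high, mKO2low, mKO2neg, mAG+, which is kept for the genes that follow. It was lowest in mKO2low and was counted in 8, 12, 21 and 44 cells. The ratio of mAG+ to mKO2neg was 5.77 (4.96 to 6.76), or 10.9 without the deepest cell of each gate. Ccnb2, which encodes cyclin B2, a partner of Cdk1, had 2.14, 5.28, 92.6 and 768 CPM and was counted in 2, 8, 23 and 45 cells. Its CPM in mAG+ was 8.29 times that in mKO2neg (7.02 to 9.85). Cks2, a small subunit that binds Cdk1, stood at 36.4, 44.0, 60.3 and 616.5 CPM. Ccnb2 was thus counted in 2 and 8 cells of the orange gates, mKO2high and mKO2low, whereas Cdk1 and Cks2 were counted there in 7 to 19 cells each. Cdc25c, the phosphatase that activates Cdk1, had 1.07, 0, 3.73 and 72.7 CPM and was counted in 25 mAG+ cells. Cks1b, the paralog of Cks2, had 66.4, 42.9, 79.6 and 470.3 CPM, and Cdca3 had 2.14, 7.05, 24.2 and 398 CPM. The Cks1b ratio of 5.91 became 9.45 without the deepest cells.

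The checkpoint and mitotic kinases Plk1, Aurka, Bub1, Ttk and Nek2 were each counted in at most 6 cells of any gate outside mAG+. Plk1, which drives centrosome maturation and entry into mitosis, had 0, 1.17, 5.59 and 184 CPM and was counted in 0, 2, 2 and 37 cells. The ratio of mAG+ to mKO2neg was 32.8 (17.2 to 72.2). Aurka, the spindle pole kinase, had 0, 6.46, 11.8 and 249 CPM, with a ratio of 21 (13.4 to 35.2). Bub1, a kinase of the spindle checkpoint, had 0, 2.94, 4.97 and 94.6 CPM, with a ratio of 19.0 (9.51 to 44.5). All 3 kinases had no count in the 48 mKO2high cells, where 3 counts over the gate would be 3.21 CPM. Ttk, another checkpoint kinase, had at most 2.49 CPM outside mAG+ and 74.2 CPM in it. Nek2, a centrosome kinase, had 0, 0.587, 9.32 and 86.7 CPM, and its ratio of 9.30 became 25.7 without the deepest cells. Ube2c had 2.14, 3.52, 41.0 and 925 CPM and was counted in 2, 4, 23 and 43 cells. Its mAG+ to mKO2neg ratio was 22.6 (17.7 to 29.2). Cdc20 had 0, 12.9, 16.2 and 365 CPM and also gave a ratio of 22.6 (15.3 to 34.7). Ube2c was counted in 23 mKO2neg cells and Cdc20 in 5.

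At the kinetochore, Cenpa, the histone H3 variant of centromeres, had 31.0, 60.5, 140 and 885 CPM. It was counted in 7, 18, 26 and 45 cells, with a mAG+ to mKO2neg ratio of 6.30 (5.50 to 7.25). Hjurp, the chaperone that loads Cenpa, had 25.7, 64.6, 54.1 and 342 CPM, with a ratio of 6.33 (5.08 to 7.98) that became 9.62 without the deepest cells. Both genes were thus counted in every gate, and Hjurp was higher in mKO2low than in mKO2neg. Cenpf, a large outer kinetochore protein made in G2, had 3.21, 7.05, 27.4 and 756 CPM, with a ratio of 27.6 (20.5 to 38.2). Of the microtubule-binding Ndc80 complex, Ndc80 had 6.42, 7.63, 12.4 and 172 CPM, and its partner Nuf2 had 0, 1.17, 12.4 and 170 CPM. Without the deepest cells their ratios of 13.8 and 13.7 became 21.9 and 48.1. Cenpe, a kinetochore motor, had 1.07, 11.2, 55.9 and 257 CPM, and its ratio of 4.6 became 7.60.

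The chromosomal passenger complex corrects faulty attachments and directs cell division, and its members were counted unevenly among mKO2neg cells. Aurkb, its kinase, had 0, 4.70, 67.1 and 303 CPM, Birc5 had 6.42, 5.28, 147 and 827 CPM, and Cdca8, which encodes borealin, had 22.5, 9.98, 136 and 549 CPM. The mAG+ to mKO2neg ratios were 4.52 (3.70 to 5.57), 5.64 (4.93 to 6.47) and 4.05 (3.51 to 4.69). One mKO2neg cell, the deepest of the gate at 210516 counts, held 86.1% of the gate's Aurkb counts, 80.5% of the Birc5 counts and 86.2% of the Cdca8 counts. With the deepest cell of each gate left out, the ratios were 28.2, 25.5 and 26.3.

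Of the chromosome and chromatin genes, Top2a had 4.28, 46.4, 161 and 1409 CPM and was counted in 3, 12, 26 and 45 cells. The ratio of mAG+ to mKO2neg was 8.75 (7.72 to 9.96), and 20.6 with the deepest cells left out, since that mKO2neg cell held 63.3% of the gate's Top2a counts. Smc4, a condensin subunit, had 97.4, 117, 177 and 1114 CPM, with a ratio of 6.31 (5.59 to 7.15). Hmgb2, a DNA-bending chromatin protein, had 134, 303, 586 and 3285 CPM and was counted in 29, 45, 43 and 46 cells. Hmgb2 was the only member counted in at least 24 mKO2high cells, and its ratio of 5.61 (5.24 to 6.00) became 10.9 without the deepest cells. Mki67, the Ki-67 proliferation marker that coats mitotic chromosomes, had 4.28, 5.28, 67.1 and 668 CPM, and its ratio of 9.95 became 33.2 without those cells. The condensin subunit gene Ncapd2 had 5.35, 25.2, 29.2 and 252 CPM, and Cdca2, a phosphatase subunit that acts on chromatin as mitosis ends, had 8.56, 3.52, 17.4 and 184 CPM.

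Some chromatin genes of the list were counted throughout the gates. Cbx5, which encodes heterochromatin protein 1 alpha, had 43.9, 75.7, 103 and 318 CPM, with a mAG+ to mKO2neg ratio of 3.10 (2.62 to 3.68). Anp32e, a chaperone that removes the histone variant H2A.Z, had 88.9, 74.0, 60.9 and 246 CPM, with a ratio of 4.03 (3.26 to 5.04). Ctcf, an architectural DNA-binding protein used all through the cell cycle, had 97.4, 100.4, 78.9 and 178 CPM, with a ratio of 2.26 (1.86 to 2.77). Anp32e and Ctcf thus stood higher in the orange gates than in mKO2neg, a contrast that crosses the libraries. With the deepest cells left out, Anp32e had 87.0, 78.2 and 44.3 CPM in mKO2high, mKO2low and mKO2neg. Ctcf then had 61.1, 108 and 57.2 CPM, so mKO2high and mKO2neg were close. The nuclear envelope genes had the lowest median ratio of any role. Lbr, the lamin B receptor, had 8.56, 6.46, 18.0 and 28.3 CPM, a ratio of 1.57 (1.01 to 2.49). Without the deepest cells the Lbr ratio was 1.42 (0.918 to 2.26). Rangap1, which activates the Ran GTPase at the nuclear pore and on kinetochores, had 23.6, 66.3, 120 and 212 CPM, a ratio of 1.77 (1.5 to 2.09). Tmpo, which encodes lamina-associated polypeptide 2, had 55.7, 49.9, 106 and 408 CPM, a ratio of 3.84 (3.27 to 4.54).

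The spindle genes held the widest range of ratios. Hmmr, a microtubule-binding protein of the spindle, had 0, 2.35, 1.86 and 275 CPM and was counted in 0, 3, 3 and 43 cells. The 768 counts in mAG+ against 3 in mKO2neg gave a ratio of 148 (50.3 to 717). Dlgap5, which stabilises kinetochore fibres, had 3.21, 4.11, 2.49 and 119 CPM, with a ratio of 48.0 (18.6 to 177). Both genes were at or under 4.11 CPM in the 3 gates other than mAG+. Nusap1, a microtubule bundling protein, had 0, 1.76, 21.1 and 453 CPM, with a ratio of 21.4 (15.3 to 31.1). Tpx2, the activator of Aurka, had 0, 7.63, 76.5 and 316 CPM, with a ratio of 4.14 (3.42 to 5.04) that became 18.8 without the deepest cells. Ckap2, a spindle-associated protein, had 2.14, 8.22, 36.7 and 285 CPM, with a ratio of 7.77 (5.96 to 10.3), or 19.2 without those cells. Kif11, the motor that separates the spindle poles, had 5.35, 0, 18.6 and 192 CPM. Ckap2l, a relative of Ckap2, had 0, 1.76, 8.08 and 192 CPM, and Kif2c, a motor that takes microtubules apart, had 0, 0.587, 3.73 and 89.9 CPM. Both, like Hmmr, Nusap1 and Tpx2, had no count in mKO2high. The other spindle genes, Tacc3, Gtse1, Psrc1, Ckap5 and Gas2l3, reached 62.0 to 223.5 CPM in mAG+ and at most 39.2 CPM elsewhere. Among them the Tacc3 ratio of 5.71 became 14.4 without the deepest cells.

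Of the 4 cytokinesis genes, Anln and Ect2 were counted in few cells outside mAG+, and Kif23 and Kif20b in more. Anln, a scaffold of the contractile ring, had 3.21, 2.35, 3.73 and 161 CPM and was counted in 2, 2, 4 and 38 cells, with a mAG+ to mKO2neg ratio of 43.1 (19.7 to 118). Kif23, a motor of the central spindle, had 10.7, 19.4, 37.9 and 307 CPM and was counted in 7, 9, 19 and 43 cells. Kif20b, another motor of late mitosis, had 8.56, 25.2, 47.9 and 314 CPM and was counted in 3, 12, 10 and 41 cells. Its ratio of 6.56 became 13.7 without the deepest cells. Ect2, which activates RhoA at the division site, had 2.14, 3.52, 3.73 and 86.0 CPM and was counted in 1, 2, 3 and 37 cells. Its ratio of 23.0 became 63.6 without the deepest cells. Anln and Ect2 thus stayed at or under 3.73 CPM outside mAG+, whereas Kif23 was higher in mKO2neg than in the orange gates. Kif20b was too with all cells, but stood at 24.3 CPM in mKO2neg and 26.5 in mKO2low without the deepest cells. G2e3, a ubiquitin ligase named for its G2 expression, had 12.8, 24.1, 10.6 and 146 CPM, with a ratio of 13.8 (8.53 to 24).

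The difference between the orange gates was smaller and mixed. In the library that held them, 36 of the 52 genes had at least 10 counts over mKO2low and mKO2high, 26 higher in mKO2low and 10 lower. Over all 10901 genes with that many counts, 5690 were higher and 5211 lower. Of the 36, 14 were at least 2-fold higher, against 19.6% of the 10901, and 2 at least 2-fold lower, against 15%. The median log2 ratio was 0.79, against 0.05 for all genes, and the summed counts gave 0.54 (0.43 to 0.66). Top2a was 10.8 times higher in mKO2low (4.07 to 40.7), Hmgb2 2.26 times (1.86 to 2.77), Hjurp 2.51 times (1.60 to 4.09), Rangap1 2.82 times (1.77 to 4.67) and Kif20b 2.95 times (1.37 to 7.26). Cdc20, with no count in mKO2high, was at least 4.02-fold higher in mKO2low, Tpx2 at least 2.38-fold and Aurka at least 2.01-fold, each set against 3 counts over the gate. In the opposite direction, Cdca8 had a mKO2low to mKO2high ratio of 0.444 (0.220 to 0.883), Ckap5, a microtubule polymerase, 0.548 (0.333 to 0.902), and Cks1b 0.646 (0.454 to 0.921). Without the deepest cells, Cks1b was 41.0 CPM in mKO2low and 42.3 in mKO2high. With every cell thinned to 5000 counts, only 15 genes reached 10 counts and 1 of them was at least 2-fold higher in mKO2low. The share over all genes at that depth was not taken.

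The remaining contrasts cross the libraries, so effects of gate and of library cannot be told apart there. Between mKO2neg and mKO2low, 48 genes reached 10 counts, of which 24 were at least 2-fold higher in mKO2neg, against 15.3% of 11375 genes, and 2 at least 2-fold lower, against 16.7%. The median log2 ratio was 1.02, against 0.01 for all genes. Without the deepest cells 18 of 44 were at least 2-fold higher in mKO2neg, against 15.1% of all genes. Only 1 of the 3 mKO2neg cells described further on is left out there. Without all 3, the share of counts in the 52 genes was 0.138% in mKO2neg and 0.139% in mKO2low, and the 2-fold count was not taken. Between mAG+ and mKO2high, 51 of 52 were at least 2-fold higher in mAG+, against 26.2% of 11849 genes, and 0 at least 2-fold lower, against 17.1%. The median log2 ratio was 5.35 there, or 5.02 with the genes absent from mKO2high set to 3 counts, against 0.12 for all genes.

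Cell by cell, the mAG+ gate stood apart from the rest. The median mKO2high cell had counts for 4.5 of the 52 genes (quartiles 3 and 6), the median mKO2low cell for 9 (7 and 14), the median mKO2neg cell for 12 (9 and 18.25) and the median mAG+ cell for 48 (43 and 50). At 5000 counts per cell the medians were 3, 4, 5 and 33. At that depth at least 10 of the genes were counted in 0 of 39 mKO2high cells (exact Clopper-Pearson interval 0 to 9.03%), 2 of 48 mKO2low cells, 3 of 43 mKO2neg cells (6.98%, 1.46% to 19.1%) and all 45 cells of mAG+. The lowest of the 45 mAG+ cells, with 11768 counts in all, had 11 of the genes at that depth.

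**Figure D3:**
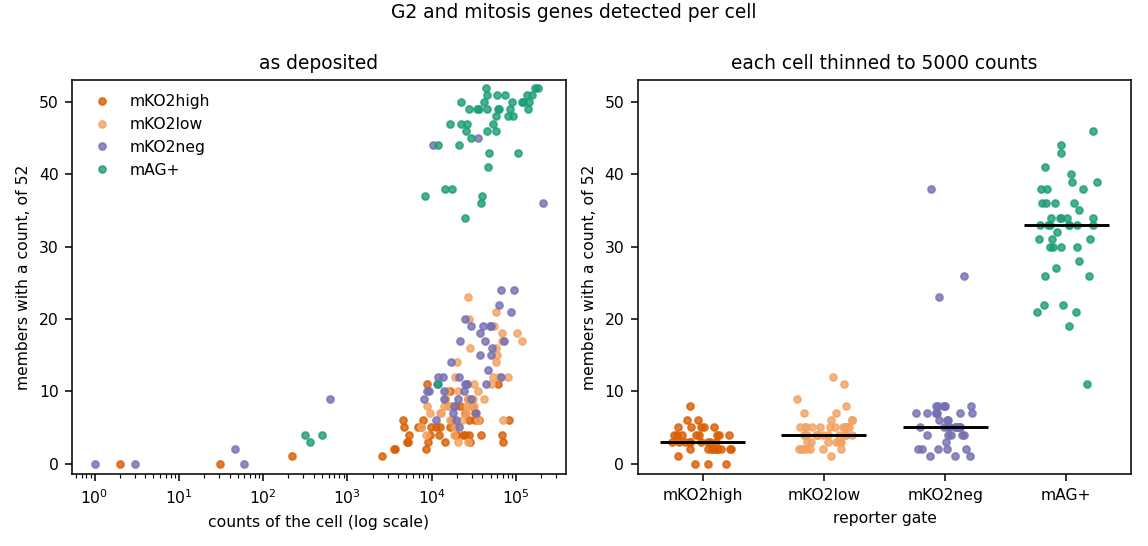
Number of the 52 genes with a count in each cell (points), against the cell's counts on a log axis (left) and by gate with every cell thinned to 5000 counts (right, with a line at the median). On the right the mAG+ cells run from 11 to 46, and 3 mKO2neg cells and 2 mKO2low cells also reach 11 or more.

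The mKO2neg gate was uneven. Counts for at least 30 of the 52 genes were found in 3 of its 48 cells, in 44 mAG+ cells and in 0 cells of either orange gate. Those 3 mKO2neg cells held 45, 44 and 36 of the genes, and the next cells of that gate held 24. The 3 cells with the most counts of these genes held 61.7% of the gate's counts for them, against 18.5% in mAG+. The first of the 3 had 1.24% of its counts in the mitotic genes and 0.49% in 43 S phase genes. The second had 2.95% in mitotic genes and 0.04% in S phase genes. The third, the deepest cell of the gate, had 1.06% and 1.10%. Over 50% of a gene's mKO2neg counts came from a single cell for 22 of the 52 genes. In mKO2high, mKO2low and mAG+ the same held for 18, 12 and 0 genes, and the share over all genes was not taken.

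The S phase list, made of genes for DNA replication, had a lower median ratio of mAG+ to mKO2neg than the mitotic genes. Of 42 S phase genes with at least 10 counts, 20 were at least 2-fold higher in mAG+, against 21.2% of all genes, and 1 at least 2-fold lower, against 14.6%, with a median log2 ratio of 0.97. Without the deepest cells 33 of 42 were at least 2-fold higher, against 21.8% of all genes. The median was then 2.25, against 3.89 for the 52 mitotic genes. The share of counts in S phase genes was 0.125%, 0.222%, 0.285% and 0.514% from mKO2high to mAG+. The place of mKO2neg in that order rested on its deepest cell: without the deepest cells the shares were 0.125%, 0.231%, 0.162% and 0.520%, and the median cell had 0.156% in mKO2low and 0.11% in mKO2neg. Between mKO2low and mKO2high, 22 of 38 S phase genes were at least 2-fold higher in mKO2low, against 19.6% of all genes, with a median log2 ratio of 1.21. In mKO2low, 2 of the 3 cells with the most mitotic genes counted, 23 and 20, also had 0.92% and 1.13% of their counts in S phase genes.

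**Figure D4:**
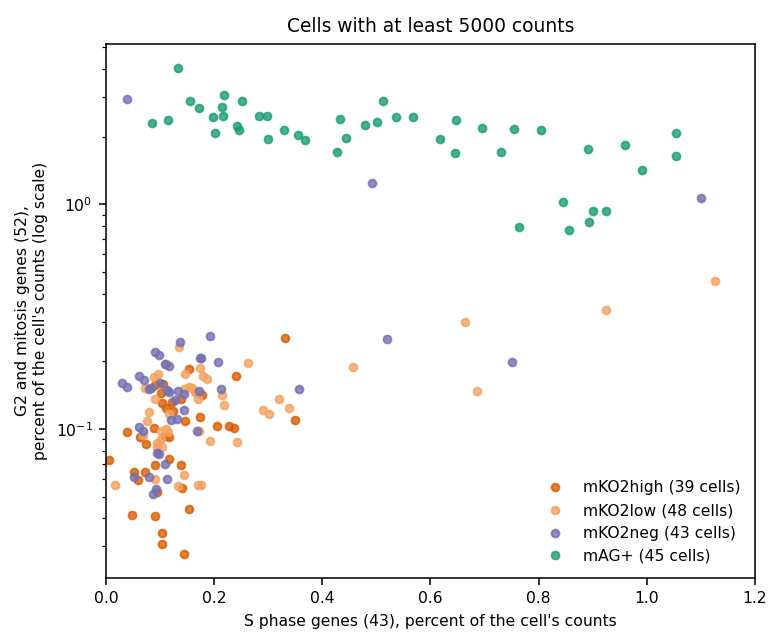
Percent of each cell's counts in the 43 S phase genes (horizontal) against percent in the 52 G2 and mitosis genes (vertical, log axis) for cells with at least 5000 counts, coloured by gate. The mAG+ cells spread over the S phase axis and lie at 0.767% or more on the vertical axis, and the cells of the other gates lie below it except 3 mKO2neg cells.

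Among the 45 mAG+ cells with at least 5000 counts, the genes were not all high in the same cells. Spearman's rho was computed over these cells, which share a library, between a gene's CPM and the summed CPM of the other 51. It was positive for 50 of the 52, with a median of 0.40, and at least 0.5 for 16. It was highest for Ube2c (0.79), Cdc20 (0.72), Cenpa (0.68), Cks2 (0.67) and Cdc25c (0.62). The same 5 genes gave rho of -0.79, -0.76, -0.75, -0.72 and -0.69 with the summed S phase genes. The lowest value was that of Cbx5, at -0.32, with 0.34 against the S phase sum. Rangap1 (0.00), Anln (0.02) and Aurkb (0.02) had almost none. The summed mitotic genes and the summed S phase genes had a rho of -0.71, and the mitotic sum had 0.11 with depth. Shares of one total are tied to each other, so these values describe the cells and carry no test.

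**Figure D5:**
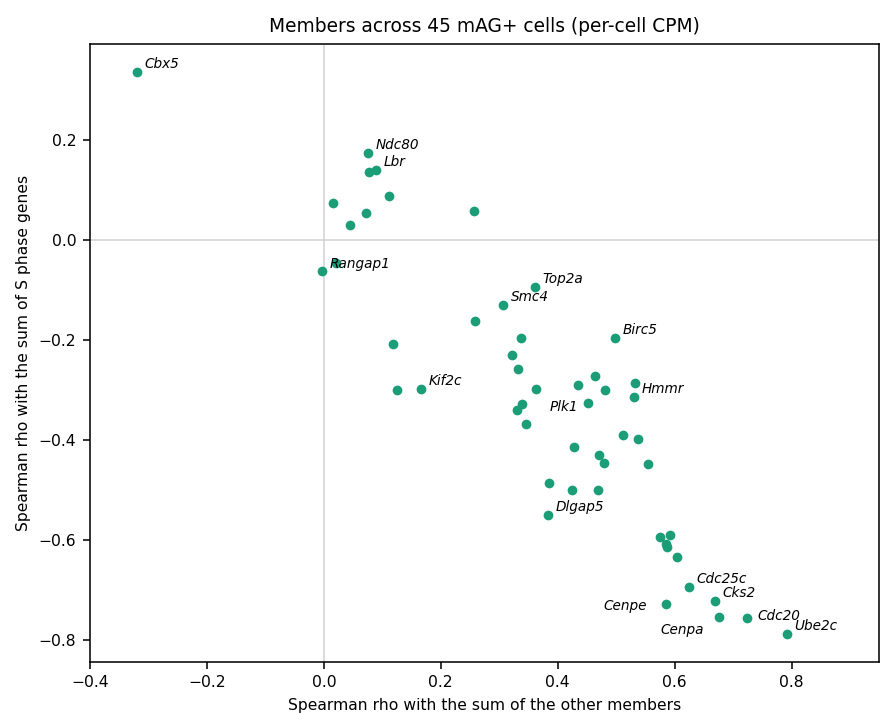
Each gene's Spearman rho over 45 mAG+ cells with the sum of the other genes of the list (horizontal) and with the sum of the S phase genes (vertical). Ube2c, Cdc20, Cenpa and Cks2 lie at the lower right, and Cbx5 lies alone at the upper left.

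A second list held 40 other G2 and mitosis genes. It too was chosen with earlier results of these data known, so it gives no independent support. Of these 40 genes, 38 were at least 2-fold higher in mAG+ than in mKO2neg, against 21.2% of all genes. The other 2 were at least 2-fold lower, against 14.6%. Their median log2 ratio was 3.45, or 3.31 with genes absent from mKO2neg set to 3 counts. Ccnb1, which encodes cyclin B1, had 5.35, 10.6, 19.3 and 237.5 CPM, and Ccna2, which encodes cyclin A2, had 0, 4.70, 52.2 and 389 CPM. The exceptions were Pttg1, which encodes securin, at 95.3, 96.9, 123 and 49.1 CPM, and Kifc1, a spindle motor, with 28 counts in mKO2neg and 14 in mAG+. The direction of Kifc1 rested on the deepest mKO2neg cell, without which that gate had 1 count. Pttg1 stayed lower in mAG+ without the deepest cells, at 52.2 CPM against 142 in mKO2neg. The reading by neighbouring row was not checked separately for each gene.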

How the data were processed

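Single cells of Fucci reporter mice were measured in 4 gates of 48 cells. The deposited values are whole-number counts per gene and cell, with no normalization by the authors. The submitters' processing notes list HISAT2, HTSeq 0.11.3, Seurat and the build mm10 with no word on their use. For the annotation release and any filter, the sources used here say nothing. All cells were used, and doublets were not called because cells were sorted singly. Each gene was read from the row 1 place before its own in GENCODE M21 order, over the rows in the file only; 105 rows without a place there held 0.222% of counts and stayed in the totals. Cells came to a gate through the deposited cell table. Counts were summed per gate and divided by the gate total (CPM).

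Ratios of at least 10 counts over both gates were taken, with a prior count of 1 on the log2 scale only. Intervals are exact: Poisson for sums, conditional binomial for ratios and Clopper-Pearson for shares. Folds against a gate with no count use 3 counts over that gate. Cells were thinned without replacement to 5000 counts. Python 3.11.15, numpy 2.4.6, scipy 1.17.1, pandas 2.3.3 and matplotlib 3.10.9 were used, with edgeR 4.0.16 and DESeq2 1.42.0 in R 4.3.3 for scaling alternatives only. The ratio step was tested on simulated counts. Thinning was checked on the real counts, and only for no cell exceeding 5000 counts. The members and lists were chosen with earlier results of these data known. Values in all 4 gates were given for the 2 or 3 members of each role with the highest mean CPM, the 5 smallest and 5 largest ratios of mAG+ to mKO2neg, the 5 most often counted in mKO2high and those without a count in a gate; others were added for their role.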

Additional observations from a re-analysis of the deposited data

How the results depend on the processing

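No paired analysis was possible because each gate is 1 sample and the gates share no replicates. Of 92 alternative values, 70 kept their direction and stayed within the limits set for a change, including those under TMM and DESeq2 scaling, equal weight per cell and a minimum of 1000 genes per cell. With the labels as deposited, the median log2 ratio of mAG+ to mKO2neg turned to -0.46 and that of mAG+ to mKO2high was 0.13, over 16 genes. The genes at least 2-fold higher were then 1, 3, 4 and 4 in mAG+ against mKO2neg, mAG+ against mKO2high, mKO2low against mKO2high and mKO2neg against mKO2low. Genes counted per cell were 5 in mKO2low, 4 in mKO2neg and 6 in mAG+. Thinned to 5000 counts, genes at least 2-fold higher were 1 of 15 in mKO2low against mKO2high and 12 of 28 in mKO2neg against mKO2low. Genes per cell were 4, 5 and 33 in mKO2low, mKO2neg and mAG+, and the median gene's share of cells was 4.17%, 9.30% and 61.1%. Asking for at least 2 counts gave 6 genes per cell in mKO2low and 6 in mKO2neg. Without the filter on low counts, 22 of 52 genes were at least 2-fold higher in mKO2low against mKO2high. The share over all genes was not taken for the 2-fold counts with labels as deposited, cells thinned or no filter. Leaving out the largest cell of each gene in each gate, with gate totals unchanged, gave a median log2 ratio of 4.29 for mAG+ to mKO2neg. This step favours a rise, since 1 cell held over 50% of the counts for 22 genes in mKO2neg and 0 in mAG+. Removing each gate's deepest cell, an alternative chosen after seeing the data, gave a median of 3.89. The share of counts without 3 mKO2neg cells, 0.138%, was also chosen after seeing the data. Depth limits the low genes: 3 counts over a gate are 3.21 CPM in mKO2high and 1.07 CPM in mAG+.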
